A study of Mus musculus with 8 samples.

Results

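The cytosolic ribosomal protein genes were taken as all symbols in the deposited gene count tables that read Rpl, Rps, Rplp or Rpsp followed by a number and, at most, a letter a, x or l with a further number. The rule found 83 of the 24062 genes in both count tables, 51 named for the large subunit and 32 for the small. It uses names only and leaves out the kinases named for ribosomal protein S6, but it was set with earlier results of these data known. The series measured heart tissue of male C57BL/6 mice aged 8 to 12 weeks, and the piece taken was the left ventricular free wall. There were 4 groups of 2 mice: myocardial infarction (MI) by ligation of the left anterior descending artery, sampled after 1 day and after 3 days, and sham surgery without ligation, sampled at the same times. The MI tissue was the ischaemic part of the wall, frozen and pulverised whole, so each library mixes all cell types present. Ribosomal RNA was removed from the total RNA before paired-end sequencing, with 1 library per mouse.

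A ribosome joins a small subunit, which reads the messenger RNA, to a large subunit, which makes the peptide bond. Each carries a fixed set of proteins around its ribosomal RNA, so their genes tend to be expressed together. Their messenger RNAs typically begin with a tract of C and T bases, the terminal oligopyrimidine (TOP) tract, through which LARP1 and the kinase mTOR control their translation. A few proteins have a tissue-restricted paralog, and the best known in heart and skeletal muscle is RPL3L, which replaces RPL3 near the site of peptide bond formation in striated muscle cells.

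Totals of gene counts lay between 7382490 and 25041386 per library, lowest in the 2 MI libraries of 1 day. Mitochondrially encoded transcripts took 28.7% and 43.34% of transcript-table reads in the MI libraries of 1 day, against 15.04% and 13.88% in the sham libraries of 1 day. At 3 days they took 6.51% and 4.19% in MI, against 16.56% and 15.68% in sham. Of 1475 olfactory, trace amine-associated and vomeronasal receptor genes, 92.07% had a read in MI library B of 1 day. The share was 50.71% in sham library B of 1 day, while the other 6 libraries had between 4.07% and 23.46%. The part of these library differences in the results below was not tested; results that change without a library are given with that library left out. The letters A and B name the libraries of a group and carry no pairing.

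The sequences around the starts of the genes whose MI effect differed most between the days are shown for the C and T tract at which TOP transcripts start. The 60 bases run from 30 before to 30 after the annotated start, on the gene's strand, from RefSeq on GRCm38.p6. Capitals mark the longest unbroken run of C and T where it has 5 bases or more. Where runs are equally long, as in Rps27l, the first is marked. Rpl3l (chr17:24727796-24727855, plus strand) had a run of 5. Rps21 (chr2:180257349-180257408, plus) had 7, Rpl22l1 (chr3:28805478-28805537, plus) 10 and Rps27l (chr9:66946056-66946115, plus) 9. Rpl39 (chrX:37085193-37085252, minus) had 9, and Rps4x (chrX:102189362-102189421, minus) had none of 5 or more. The marked runs of Rps27l and Rpl39 lie wholly before the annotated start.
Rpl3l: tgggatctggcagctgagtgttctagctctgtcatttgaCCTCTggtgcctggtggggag
Rps21: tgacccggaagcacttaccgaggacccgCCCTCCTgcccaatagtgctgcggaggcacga
Rpl22l1: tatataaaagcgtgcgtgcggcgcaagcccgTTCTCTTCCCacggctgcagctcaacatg
Rps27l: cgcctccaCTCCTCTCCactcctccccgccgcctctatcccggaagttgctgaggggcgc
Rpl39: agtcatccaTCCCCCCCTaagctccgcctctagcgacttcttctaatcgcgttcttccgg
Rps4x: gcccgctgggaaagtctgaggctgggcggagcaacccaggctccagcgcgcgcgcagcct
Of the 83 genes, 62 had an entry in the RefSeq promoter table. A run of 8 or more bases that are each C or T, searched on the gene's strand in this window of any annotated start, was found in 35 of them (56.5%), against 6965 of all 27025 genes with an entry (25.8%). A run of this kind is a description of the letters, not evidence of a TOP tract.

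At 3 days the ribosomal protein genes together stood far above sham, while at 1 day their sum did not differ from sham by more than the spread between libraries. Levels are given as CPM, the usual rate of counts to library size, after TMM scaling of library sizes. Summed over the 83 genes, the MI libraries of 1 day had 6280 and 5483 CPM, against 5905 and 6214 CPM in the sham libraries of 1 day. The MI libraries of 3 days had 16296 and 14745 CPM, against 6190 and 4958 CPM in the sham libraries of 3 days. After TMM scaling the groups overlapped at 1 day and lay apart at 3 days. By library size alone they lay apart at 1 day as well, since the genes took 0.612% and 0.605% of gene counts in MI, against 0.493% and 0.538% in sham. The ratio of the MI mean to the sham mean was 0.971 at 1 day and 2.78 at 3 days, and in the deposited transcript tables, where reads were summed over the transcripts of a gene, it was 1.03 and 2.71. In bulk tissue, more of the RNA in each cell and more cells of a type rich in these RNAs cannot be told apart.

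**Figure D1:**
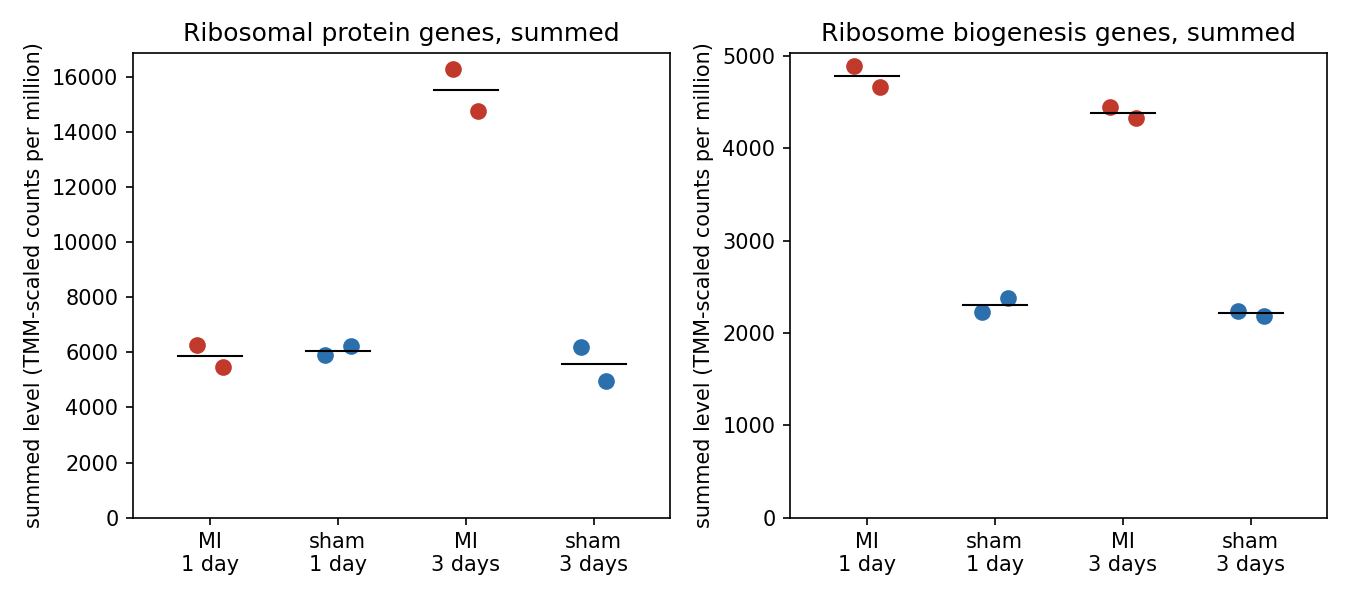
Summed levels in TMM-scaled CPM, for the 83 ribosomal protein genes (left) and the 72 ribosome biogenesis genes found in the tables (right). Each point is a library, red for MI and blue for sham, and each line is the mean of 2 libraries; the ribosomal protein sum is set apart in MI at 3 days only, at 16296 and 14745, while the biogenesis sum lies above sham at both days.

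In the gene counts at 3 days, 70 of the 81 tested genes rose in MI against sham, where 31.7% of all 15508 tested genes rose, and 1 fell, where 23.7% of all genes fell (edgeR's quasi-likelihood test, Benjamini-Hochberg adjusted p under 0.05 over all genes). The median log2 fold change of the 81 was 1.62, beside 0.16 over all genes, and the middle of the distribution, from the lower to the upper quartile, ran from 1.16 to 1.90. In 79 of the 81, both MI libraries lay above both sham libraries, which held for 45.9% of all tested genes. Of the genes tested in the transcript-table reads, 73 of 81 tested rose, beside 26.3% of all 14567 tested genes, and 1 fell, beside 28.5%; the median was 1.52. Both subunits took part, with 42 of 49 large-subunit genes and 28 of 32 small-subunit genes higher in the gene counts and medians of 1.58 and 1.62. Rpl26 had 0 gene counts in every library and Rpl10l at most 5, so neither was tested there, but Rpl26 was tested in the transcript-table reads. Rps4l was not in the transcript tables. The count of genes that rose stayed between 59 and 71 when each of the 8 libraries was left out in turn.

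The gene that fell was Rpl3l, the striated muscle paralog of Rpl3, which lies on chromosome 17 from 24727826 to 24736143 (GRCm38.p6). At 1 day it had 74.4 and 41.9 CPM in MI, against 183 and 168 CPM in sham. At 3 days it had 1.84 and 2.31 CPM in MI, from 45 and 68 counts, against 129 and 134 CPM in sham, from 2421 and 2525 counts. MI and sham did not overlap at either day, and both MI libraries of 3 days lay far below both of 1 day. The log2 fold change was -1.58 ± 0.25 at 1 day (SE, adjusted p = 0.0013, edgeR) and -5.97 ± 0.32 at 3 days (adjusted p = 1.51e-06), a fold of 0.0159. The fall was greater at 3 days by -4.39 ± 0.40 on the log2 scale (adjusted p = 0.000169 for the difference, edgeR). It was called at both days under each alternative run, leaving out any 1 library included. Markers of heart muscle cells moved with it: 10 of 10 cardiomyocyte markers fell at 3 days, with a median log2 change of -4.10, and their summed level was 8372 and 8329 CPM in MI, against 115528 and 177611 CPM in sham. Their part in the fall of Rpl3l was not tested.

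Rpl3, the paralog made in nearly all tissues and placed on chromosome 15, rose at both days. It had 47.6 and 68.2 CPM in MI at 1 day, against 24.1 and 24.3 CPM in sham. At 3 days it had 155 and 142 CPM in MI, against 31 and 26.4 CPM in sham. The groups lay apart at both days, and the log2 fold changes were 1.25 ± 0.21 at 1 day (SE, adjusted p = 0.00194, edgeR) and 2.37 ± 0.21 at 3 days (adjusted p = 1.31e-05). The larger effect at 3 days, by 1.12 ± 0.29, passed the test (adjusted p = 0.0215), but not when sham library A or B of 1 day, MI library A or B of 3 days or sham library B of 3 days was left out (adjusted p between 0.0661 and 0.144).

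To set the pair on 1 scale, transcript-table reads were divided by transcript length in kilobases and by library size (RPKM). The share of Rpl3l in the per-kilobase level of Rpl3l and Rpl3 together was 14.9% and 7.79% in MI at 1 day, against 41.4% and 37.1% in sham. At 3 days it was 0.189% and 0.22% in MI, against 27.2% and 36.5% in sham. In these reads Rpl3l thus gave at least 27.2% of the pair in each sham library and at most 0.22% in each MI library of 3 days. By gene counts, not divided by length, its share was 88.4% and 87.4% in sham at 1 day, against 61% and 38.1% in MI. At 3 days that share was 80.7% and 83.6% in sham, against 1.18% and 1.6% in MI. Rpl3l had 2.05 gene counts per transcript-table read and Rpl3 0.171, so which of them was the larger part in sham is uncertain. The share was lower in MI by both measures. The per-kilobase level of Rpl3l itself was 1.53 and 1.78 in MI at 3 days as TMM-scaled RPKM, against 71.7 and 76.2 in sham, while that of Rpl3 was 811 and 808 in MI, against 192 and 132 in sham.

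**Figure D2:**
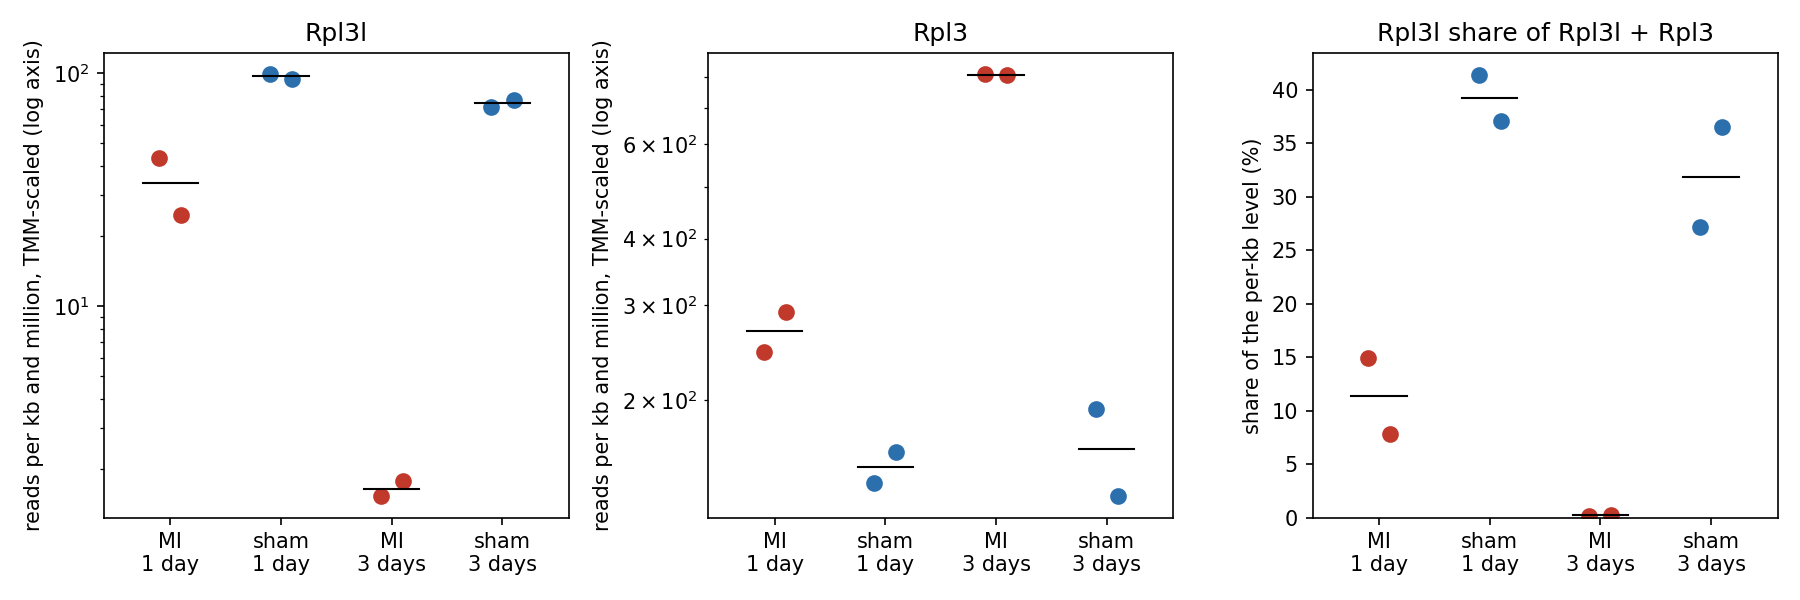
Levels of Rpl3l (left) and Rpl3 (middle) in transcript-table reads as TMM-scaled RPKM, on log axes that differ between the panels, and the percentage share of Rpl3l in their sum (right). Points are libraries, red for MI and blue for sham, and lines are means of 2; the share is 0.189% and 0.22% in the MI libraries of 3 days and at least 27.2% in each sham library.

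Among the other paralogs, Rpl22l1 rose more than its partner at 3 days. RPL22L1 is a paralog of RPL22, a large-subunit protein that binds RNA and is not essential for the ribosome. Rpl22l1 had 57.2 and 47.8 CPM in MI at 3 days, against 12.3 and 8.54 CPM in sham, which made 2.33 ± 0.26 on the log2 scale (SE, adjusted p = 5.84e-05, edgeR). Rpl22 had 393 and 320 CPM in MI, against 153 and 116 CPM in sham (log2 fold change 1.41 ± 0.19, adjusted p = 0.000199). Both rose with no overlap between groups. The per-kilobase share of Rpl22l1 in the pair was 26.8% and 28.1% in MI at 3 days, against 20.7% and 18.3% in sham, and 16.9% and 10.6% in MI at 1 day, against 21.7% and 22.3% in sham. In these reads the share therefore lay above sham at 3 days and below sham at 1 day, without a test of either. By gene counts, not divided by length, it was also above sham at 3 days, with 12.7% and 13% in MI, against 7.45% and 6.88%. At 1 day the gene count shares overlapped, with 9.58% and 5.69% in MI, against 7.1% and 7.1% in sham.

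Rps27l, a paralog of Rps27 that is also a target of p53, rose to 215 and 190 CPM in MI at 3 days, against 61.3 and 45.3 CPM in sham (log2 fold change 1.93 ± 0.19, adjusted p = 2.61e-05, edgeR). Rps27 was nearly uncounted in the gene counts, with 4.05 and 1.8 CPM in MI at 3 days, against 1.6 and 0.955 CPM in sham (adjusted p = 0.0829). Rps27 in the transcript-table reads had 328 and 237 CPM in MI, against 126 and 53.1 CPM in sham (adjusted p = 0.0482), so the gene counts cannot give the balance of this pair. Rpl7l1, a paralog of Rpl7 with a role in ribosome assembly, rose less than Rpl7 at 3 days, with log2 fold changes of 0.93 ± 0.19 (adjusted p = 0.00254) and 1.85 ± 0.22 (adjusted p = 7.25e-05); the difference between the genes was not tested. The call of Rpl7l1 was lost when MI library A (adjusted p = 0.0821) or B (adjusted p = 0.0836) of 3 days was left out.

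Rpl36al had 114 and 108 CPM in MI at 3 days, against 33.7 and 27.9 CPM in sham, and rose with Rpl36a (log2 fold changes 1.85 ± 0.20 and 2.49 ± 0.40, edgeR adjusted p = 4.77e-05 and 0.000524). Rpl39l, best known from testis, was near the floor of detection, with 1.56 and 2.72 CPM in MI at 3 days, against 0.267 and 0.265 CPM in sham, or 38 and 80 counts against 5 and 5. Its log2 fold change of 3.00 ± 0.75 (adjusted p = 0.00527) was called by edgeR but not by DESeq2 (adjusted p = 0.0753), nor without MI library B (adjusted p = 0.0973) or sham library B (adjusted p = 0.0504) of 3 days. Rps4l, a paralog of Rps4x, had 26.1 and 31.4 CPM in MI at 3 days, against 23.8 and 21.3 CPM in sham (adjusted p = 0.55), while Rps4x rose to 491 and 427 CPM in MI, against 148 and 97.4 CPM in sham (adjusted p = 6.06e-05).

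In the P stalk, which recruits elongation factors, Rplp1 had 1041 and 855 CPM in MI at 3 days, against 319 and 235 CPM in sham, and rose by a log2 fold change of 1.77 ± 0.22 (adjusted p = 0.000106, edgeR). Rplp0, the base of the stalk, rose by 1.13 ± 0.16 (adjusted p = 0.000285). Rplp2, the partner of Rplp1, had 34.4 and 30.6 CPM in MI, against 29.6 and 27.2 CPM in sham, and did not pass (log2 fold change 0.19 ± 0.37, adjusted p = 0.683). The groups of Rplp2 did not overlap, but by far less than those of its partner.

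Rpl5 and Rpl11, which bind the 5S ribosomal RNA and hold back MDM2 when ribosome assembly is disturbed, both rose at 3 days. Rpl5 had 12 and 10.6 CPM in MI, against 2.83 and 4.46 CPM in sham (log2 fold change 1.63 ± 0.29, adjusted p = 0.000923, edgeR). Rpl11 had 11 and 5.88 CPM in MI, against 1.5 and 1.91 CPM in sham (2.29 ± 0.43, adjusted p = 0.00142). Among the transcript-table reads, Rpl11 had 927 and 840 CPM in MI, against 271 and 207 CPM in sham, which made 1.89 ± 0.23 (adjusted p = 0.000141). Both groups lay apart in either table.

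Near the site of peptide bond formation, Rpl10 rose with Rpl3 (log2 fold change 1.76 ± 0.31, adjusted p = 0.00102, edgeR), and Rpl8 rose by 0.66 ± 0.20 in the gene counts (adjusted p = 0.0174) but did not pass in the transcript-table reads (0.44 ± 0.19, adjusted p = 0.072). At the exit of the nascent chain, Rpl39, one of the smallest ribosomal proteins, had 181 and 141 CPM in MI, against 38.1 and 27.4 CPM in sham (2.29 ± 0.23, adjusted p = 2.61e-05). Of the others there, Rpl19, Rpl22, Rpl31, Rpl35 and Rpl17 rose in the gene counts, Rpl23a did not pass (0.51 ± 0.40, adjusted p = 0.311) and Rpl26 was not tested. With transcript-table reads, Rpl23a (1.72 ± 0.22, adjusted p = 0.000189) and Rpl26 (1.61 ± 0.20, adjusted p = 0.000134) rose as well.

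On the small subunit, Rps2 and Rps3 lie where the messenger RNA enters. Rps3 had 1624 and 1541 CPM in MI at 3 days, against 509 and 382 CPM in sham (log2 fold change 1.83 ± 0.18, adjusted p = 2.88e-05, edgeR). Rps2 had 135 and 150 CPM in MI, against 126 and 121 CPM in sham (0.20 ± 0.42, adjusted p = 0.703). The transcript-table reads put Rps2 at 612 and 695 CPM in MI, against 601 and 571 CPM in sham. At the exit of the messenger RNA, Rps26 and Rps28 rose by 1.97 ± 0.19 (adjusted p = 2.49e-05) and 1.52 ± 0.30 (adjusted p = 0.00202). Rps6, the substrate of the S6 kinases, rose by 1.51 ± 0.23 (adjusted p = 0.00037).

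Rps27a, which is made as a fusion with ubiquitin, had 12.1 and 8.67 CPM in MI at 3 days, against 1.87 and 1.59 CPM in sham (log2 fold change 2.58 ± 0.33, adjusted p = 0.000142, edgeR). Rps23, which lies at the decoding site, had 8.43 and 7.38 CPM in MI, against 1.17 and 1.49 CPM in sham (2.56 ± 0.36, adjusted p = 0.000219). Rps23 was thinly counted there, with 0.015 counts per transcript-table read, and rose by 1.73 ± 0.21 in those reads (adjusted p = 0.000142, edgeR). Rpl13a, also known for silencing translation of inflammatory messages when released from the ribosome in human monocytes, had 898 and 834 CPM in MI, against 251 and 179 CPM in sham (2.01 ± 0.21, adjusted p = 3.12e-05). In each of these the MI libraries stood above the sham libraries. The most highly counted genes were Rpl41, Rpl4 and Rps3; Rpl41, the shortest ribosomal protein gene product, had 1374 and 1262 CPM in MI, against 351 and 324 CPM in sham (1.96 ± 0.16, adjusted p = 7.33e-06), and Rpl4 rose by 1.40 ± 0.20 (adjusted p = 0.000231).

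Rpl28, Rpl36, Rplp2, Rps13 and Rps2 passed the test at 3 days in neither table. Rpl23a, Rpl30, Rpl34, Rps27 and Rps4l missed it in the gene counts alone, where Rpl30 had at most 0.648 CPM in any library; the first 4 of them rose in the transcript-table reads, and Rps4l was not tested there. Rpl8 and Rps9 missed it in the transcript-table reads alone. Rps13 was the member besides Rpl3l whose MI libraries lay below its sham libraries at 3 days in the transcript-table reads, with 137 and 145 CPM in MI and 163 and 145 CPM in sham, where the lower sham value is above the higher MI value before rounding (log2 fold change -0.13 ± 0.22, adjusted p = 0.651, edgeR).

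At 1 day the genes did not move as a set. In the transcript-table reads, 7 of 81 tested genes rose in MI against sham, beside 20.1% of all genes, and 2 fell, beside 19.0%. The median log2 fold change was 0.02, and over all genes 0.10. The genes that rose were Rpl3, Rpl4, Rpl5, Rpl12, Rpl27, Rpl29 and Rps12, and those that fell were Rpl3l and Rps21. In the gene counts 16 of 81 rose, beside 19.3% of all genes, and 2 fell, beside 19.7%, and the median was 0.18, beside 0.12 over all genes. The shares in the transcript-table reads lay below those of all genes, and in the gene counts the share that rose was near that of all genes.

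The gene count call depended on single libraries. Fewer members rose at 1 day when a sham library of 1 day or an MI library of 3 days was left out. More members fell without MI library A of 1 day, which leaves MI library B alone. Fewer fell without MI library B, either sham library of 1 day or either MI library of 3 days. In the transcript-table reads, none rose without sham library A of 1 day and 2 without sham library B; 14 fell without MI library A, 4 without sham library B of 3 days, and 1 without MI library B or either sham library of 1 day. MI library B had the larger mitochondrial share and the reads in receptor genes given above.

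Rps21, a small-subunit protein, fell at 1 day and rose at 3 days. At 1 day it had 83.7 and 49 CPM in MI, against 130 and 120 CPM in sham (log2 fold change -0.90 ± 0.26, adjusted p = 0.022, edgeR). At 3 days it had 315 and 285 CPM in MI, against 128 and 92.3 CPM in sham (1.45 ± 0.25, adjusted p = 0.000917). The groups lay apart at both days in opposite directions. The transcript-table reads gave -0.70 ± 0.20 (adjusted p = 0.0218) and 1.20 ± 0.20 (adjusted p = 0.000861). In the gene counts the call at 1 day was lost with library sizes alone (adjusted p = 0.0572) and when MI library B, sham library A or B of 1 day, or MI library A or B of 3 days was left out (adjusted p between 0.0529 and 0.137).

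Of the 7 genes that rose at 1 day in the transcript-table reads, Rpl27 had 40.3 and 19.4 CPM in MI, against 12 and 12.6 CPM in sham, with a log2 fold change of 1.28 ± 0.30 (adjusted p = 0.0104, edgeR). Rps12, on the head of the small subunit, had 117 and 100 CPM in MI, against 46.6 and 67.4 CPM in sham (0.93 ± 0.23, adjusted p = 0.0134). Rpl5 had 376 and 415 CPM in MI, against 206 and 224 CPM in sham (0.88 ± 0.18, adjusted p = 0.00601). In these the MI libraries lay above the sham libraries. Rpl4, which lines the exit tunnel, had 619 and 752 CPM in MI, against 405 and 514 CPM in sham (0.58 ± 0.18, adjusted p = 0.0347). As given above, these calls were all lost without sham library A of 1 day, and most of the 7 without sham library B. In the gene counts, the calls of Rpl4 and Rpl5 at 1 day were lost when sham library A or B of that day was left out. The log2 fold change of Rpl4 there was 0.32 without sham library A and 0.65 without B. The gene count call of Rpl4 was also lost under other settings.

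The 2 tables counted these genes very differently. Over the 80 genes tested in both, the gene counts held a median of 0.165 counts for each transcript-table read, while the median over all 13536 genes tested in both was 2.02. Under 0.1 counts per read were found for 55 of the 13536 genes, and 33 of those were ribosomal protein genes. Ribosomal protein genes have many processed pseudogenes of near-identical sequence, and none of the sources used says how reads matching several places were counted, so their absolute levels in the gene counts are uncertain.

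The 1-day rises in the gene counts sat mostly in the genes that were thinly counted. Of the 33 genes under 0.1 counts per read, 13 rose at 1 day in the gene counts with a median log2 fold change of 0.88, and 3 rose in the transcript-table reads with a median of 0.06. Of the other 47, 3 rose in the gene counts with a median of -0.04, and 4 in the transcript-table reads. Across the 80 genes, Spearman's rho between counts per read and the difference of the log2 fold changes between the tables was -0.62 at 1 day and -0.06 at 3 days, as a description over genes that share the same 8 libraries. The 5 largest rises at 1 day in the gene counts were of this kind. Rpl24 had 7.05 and 5.16 CPM in MI at 1 day, against 0.637 and 1.15 CPM in sham, and a log2 fold change of 2.79 ± 0.53 (adjusted p = 0.00331, edgeR). Its transcript-table reads gave 243 and 194 CPM in MI, against 253 and 230 CPM in sham, and a log2 fold change of -0.15 ± 0.17 (adjusted p = 0.52). Rpl17, Rps27a, Rpl10a and Rpl10 had log2 fold changes of 2.65, 2.46, 2.39 and 2.23 in the gene counts and 0.25, 0.48, 0.41 and 0.79 in the transcript-table reads, and none of the 4 passed in those reads (adjusted p between 0.0624 and 0.409).

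**Figure D3:**
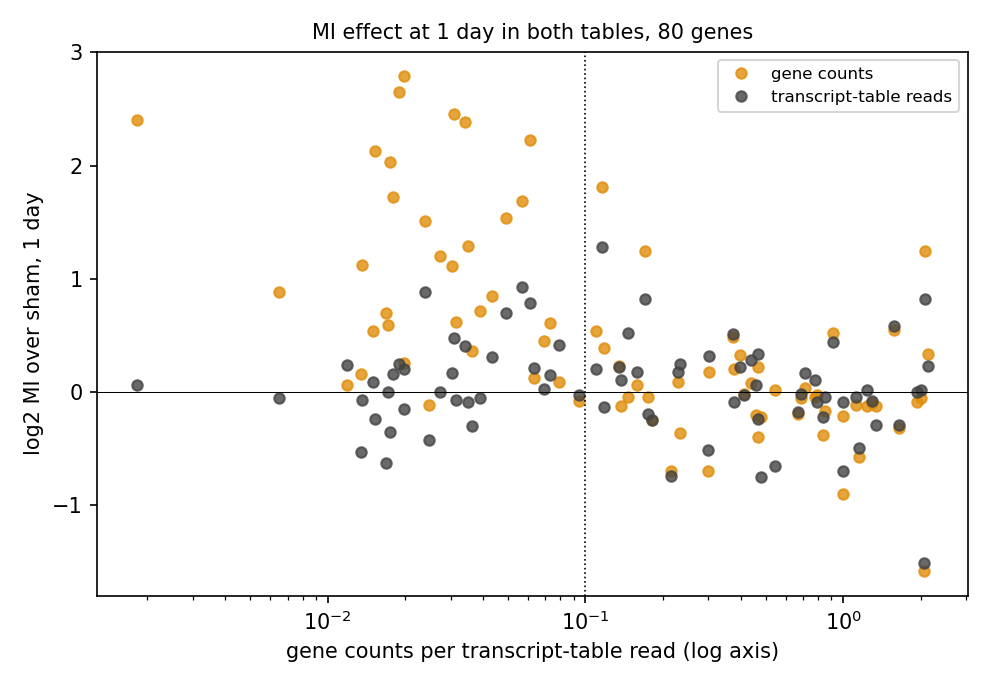
Log2 fold change of MI over sham at 1 day against the number of gene counts per transcript-table read (log axis) for 80 ribosomal protein genes, in the gene counts (orange) and the transcript-table reads (grey). To the left of the dotted line at 0.1 counts per read, the orange points have a median of 0.88 and the grey ones of 0.06.

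The effect of MI differed between the days for most of the genes. In the gene counts it was higher at 3 days than at 1 day for 45 of 81 genes, beside 13.2% of all genes, and lower for 1, beside 11.3%. With transcript-table reads it was higher for 64 of 81, beside 10.2% of all genes, and lower for 1, beside 16.6%. The gene with the lower effect was Rpl3l in both tables. The medians of the difference were 1.20 and 1.42, against -0.04 and -0.24 over all genes. Leaving out 1 library brought the 45 to as few as 19, without MI library A of 3 days; it was 24 without MI library B of 3 days, 26 without sham library B of 3 days, and 29 and 22 without sham library A and B of 1 day. The 64 ranged between 43 and 74.

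**Figure D4:**
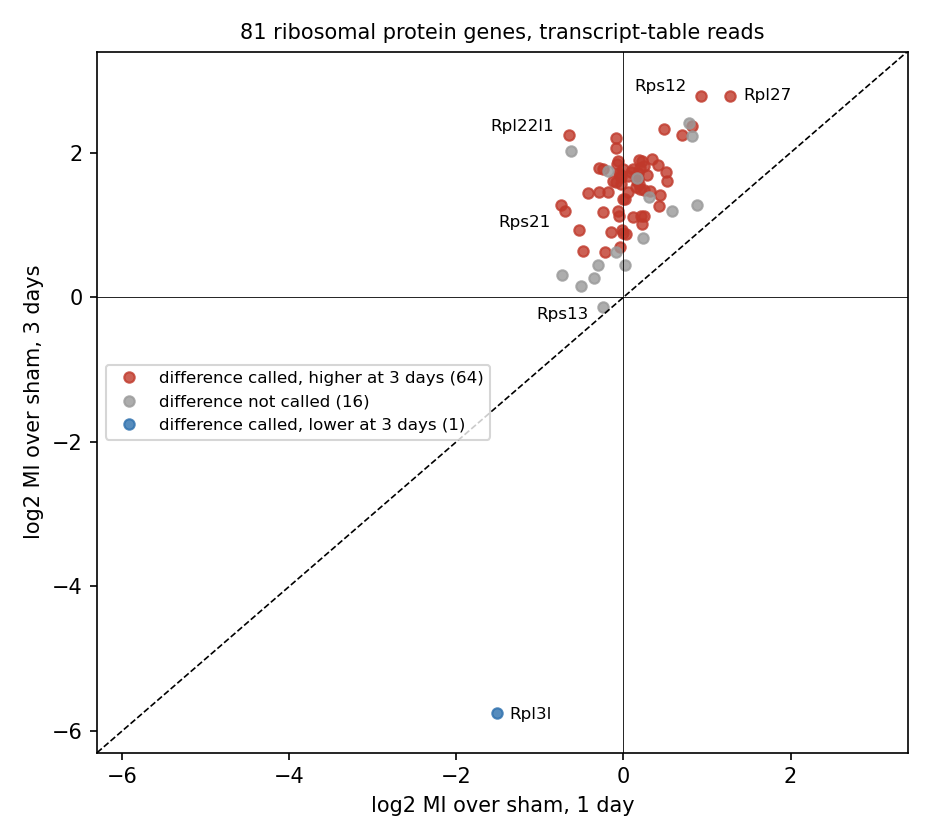
Log2 fold change of MI over sham at 3 days against that at 1 day for the 81 ribosomal protein genes tested in the transcript-table reads; the dashed line marks equal effects. Red points have a higher effect at 3 days by the test of the difference (64 genes), grey points did not pass (16), and the blue point is Rpl3l at -1.51 and -5.75.

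The 5 genes with the largest called increase of the MI effect in the gene counts were Rps21 (2.34 ± 0.36, adjusted p = 0.00199, edgeR), Rpl22l1 (2.31 ± 0.40, adjusted p = 0.00346), Rps27l (2.25 ± 0.27, adjusted p = 0.000601), Rps4x (2.10 ± 0.30, adjusted p = 0.00144) and Rpl39 (2.09 ± 0.32, adjusted p = 0.00198). For Rps4x and Rps27l the MI libraries lay below sham at 1 day in the gene counts, without passing the test, with log2 fold changes of -0.20 and -0.32. Rpl22l1 and Rpl39 had 0.02 and 0.20 there. In the transcript-table reads the sign at 1 day stayed the same for Rps27l (-0.29). It differed for Rps4x (0.06, groups overlapping), Rpl22l1 (-0.65) and Rpl39 (-0.09), again without passing the test. The calls of these 5 held in the transcript-table reads, with differences between 1.62 and 2.89.

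Between the times within MI, 58 of 81 genes were higher at 3 days than at 1 day in the gene counts, beside 23.4% of all genes, and 1 was lower, beside 22.0%; that gene was Rpl3l, with a log2 difference of -4.80 ± 0.32 (adjusted p = 7.95e-06, edgeR). The 58 became 37 without MI library A of 3 days. Within sham, none of the 81 was higher or lower at 3 days than at 1 day by edgeR, as for 0% and 0% of all genes. An unadjusted p under 0.05 was found for none of the 81 and for 1210 of all genes. DESeq2 and limma-voom called none of the members either, though DESeq2 called 20 of all genes higher and 40 lower. Each day was deposited as its own table, so day and table cannot be told apart in these 2 comparisons.

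Some ribosomal genes carry symbols outside the rule. Of Rpsa, Fau, Gnb2l1 and Rpl36al, 4 rose at 3 days, with log2 fold changes of 1.82, 1.30, 1.77 and 1.85, and 0 passed the test at 1 day (edgeR adjusted p between 0.123 and 0.864). Gnb2l1, which encodes the small-subunit scaffold RACK1, had 1585 and 1507 CPM in MI at 3 days, against 509 and 396 CPM in sham (1.77 ± 0.17, adjusted p = 2.55e-05, edgeR). Rpsa, also a laminin receptor, had 475 and 425 CPM in MI, against 136 and 118 CPM in sham (1.82 ± 0.16, adjusted p = 1.5e-05). Their groups lay apart. Fau rose by 1.30 ± 0.34 (adjusted p = 0.00961), not called without MI library A or B or sham library A of 3 days (adjusted p between 0.0639 and 0.109) or by DESeq2 (adjusted p = 0.0613).

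Factors that assemble ribosomes were already higher at 1 day. Of 72 tested ribosome biogenesis genes, 49 rose and 2 fell at 1 day, with a median log2 fold change of 1.00, and 45 rose and none fell at 3 days, with a median of 0.87. Among all genes, 19.3% rose and 19.7% fell at 1 day, 31.7% rose and 23.7% fell at 3 days, and the medians were 0.12 and 0.16. The summed level of the biogenesis genes was 4895 and 4663 CPM in MI at 1 day, against 2223 and 2373 CPM in sham, and 4441 and 4326 CPM in MI at 3 days, against 2242 and 2181 CPM in sham. The MI sums of both days lay at about the same height, unlike those of the ribosomal protein genes in the plot of summed levels. Gene by gene within MI, 9 of the 72 were higher and 19 lower at 3 days than at 1 day, beside 23.4% and 22.0% of all genes. The median log2 difference was -0.24, beside -0.03 over all genes. In the transcript-table reads 5 of 71 were higher and 24 lower, beside 2801 and 3875 of all 14567 genes, with medians of -0.43 and -0.19. By transcript-table reads, 51 rose and 1 fell of 71 at 1 day, and 39 rose and 3 fell at 3 days. Among all genes in those reads, 20.1% rose and 19.0% fell at 1 day, and 26.3% rose and 28.5% fell at 3 days.

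Gnl3, the nucleolar protein nucleostemin, had 121 and 106 CPM in MI at 1 day, against 19.7 and 24.7 CPM in sham (log2 fold change 2.35 ± 0.19, adjusted p = 9.83e-05, edgeR). Nop58, a core protein of box C/D particles that guide methylation of ribosomal RNA, had 126 and 153 CPM in MI, against 22.3 and 33.3 CPM in sham (2.32 ± 0.24, adjusted p = 0.000218), and rose by 2.61 ± 0.24 at 3 days (adjusted p = 1.57e-05). Npm1, nucleophosmin, had 370 and 331 CPM in MI at 3 days, against 57.3 and 46.3 CPM in sham (2.76 ± 0.26, adjusted p = 2.04e-05). The groups of each lay apart.

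Of 21 genes of RNA polymerase I transcription, 3 rose and 2 fell at 1 day (median log2 fold change 0.13), and 6 rose and 4 fell at 3 days (median 0.20). These counts are near or below the shares of all genes, of which 19.3% rose and 19.7% fell at 1 day and 31.7% rose and 23.7% fell at 3 days. Taf1d, a subunit of the promoter selectivity factor, rose by 2.39 ± 0.24 at 1 day (adjusted p = 0.000195, edgeR) and 2.13 ± 0.22 at 3 days (adjusted p = 3.13e-05). Polr2f, a subunit shared with the other polymerases, fell at 1 day (-1.17 ± 0.19, adjusted p = 0.00172), and Polr2h, another shared subunit, rose at 3 days (1.78 ± 0.27, adjusted p = 0.00036).

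Of 36 tested translation initiation factors, 7 rose and 4 fell at 1 day (median log2 fold change 0.00) and 11 rose and 4 fell at 3 days (median 0.29). The shares that rose are about those of all genes, 19.3% at 1 day and 31.7% at 3 days, and the shares that fell are below the 19.7% and 23.7% of all genes. Eif4a1, the helicase of the cap complex, had 140 and 133 CPM in MI at 1 day, against 35 and 40.8 CPM in sham (1.85 ± 0.18, adjusted p = 0.000187, edgeR), and rose by 2.22 ± 0.18 at 3 days (adjusted p = 8.11e-06). Pabpc1, a poly(A)-binding protein with a TOP messenger RNA, rose by 1.66 ± 0.20 at 1 day (adjusted p = 0.000418). Eif2s1, the regulatory subunit of eIF2, rose by 2.06 ± 0.20 at 3 days (adjusted p = 2.13e-05).

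Of 13 elongation and termination factors, 5 rose and 2 fell at 1 day (median log2 fold change 0.45), and 9 rose and 2 fell at 3 days (median 0.69), beside 19.3% higher and 19.7% lower among all genes at 1 day and 31.7% and 23.7% at 3 days. The elongation factor eEF1A has a widely expressed form, Eef1a1, and a form of adult muscle and neurons, Eef1a2. Eef1a2 had 295 and 225 CPM in MI at 1 day, against 1314 and 1048 CPM in sham, and 46.5 and 50.8 CPM in MI at 3 days, against 823 and 743 CPM in sham. Eef1a1 had 1126 and 1397 CPM in MI at 1 day, against 548 and 654 CPM in sham, and 3016 and 2877 CPM in MI at 3 days, against 860 and 472 CPM in sham. The pair moved apart at both days, as Rpl3l and Rpl3 did. Eef1a2 fell by 2.18 ± 0.20 at 1 day (log2 scale, adjusted p = 0.000148, edgeR) and by 4.01 ± 0.22 at 3 days (adjusted p = 1.51e-06). Eef1a1 rose by 1.07 ± 0.27 at 1 day (adjusted p = 0.0118), a call lost when sham library A of 1 day (adjusted p = 0.142) or B (adjusted p = 0.0721) was left out, and by 2.15 ± 0.27 at 3 days (adjusted p = 0.000125). Eif5a2, a paralog of Eif5a, rose by 2.82 ± 0.36 at 3 days (adjusted p = 0.000116).

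Other RNAs with a TOP tract, among them hosts of small nucleolar RNAs, also included genes that rose at both days. Of 14 tested, 9 rose and none fell at 1 day (median log2 fold change 1.17), and 12 rose and none fell at 3 days (median 1.86), where 19.3% of all genes rose at 1 day and 31.7% at 3 days. By transcript-table reads, 5 of 13 rose at 1 day and 11 at 3 days, beside 20.1% and 26.3% of all genes. Gas5, a noncoding host of small nucleolar RNAs, had 141 and 153 CPM in MI at 1 day, against 27.2 and 33.6 CPM in sham (2.27 ± 0.20, adjusted p = 0.000137, edgeR). Snhg5, another host, had 61.9 and 55.7 CPM in MI at 3 days, against 7.48 and 6.63 CPM in sham (3.06 ± 0.22, adjusted p = 4.14e-06). Snhg1 rose by 2.29 ± 0.31 at 1 day in the gene counts (adjusted p = 0.00068), but had -1.34 in the transcript-table reads (adjusted p = 0.0968). Vim, which encodes vimentin of mesenchymal and immune cells, rose by 2.73 ± 0.33 at 3 days (adjusted p = 9.29e-05).

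Of 18 genes of mTOR signalling and TOP control, 4 rose and 2 fell at 1 day (median log2 fold change -0.04), and 1 rose and 6 fell at 3 days (median -0.31). Of all genes, 19.3% rose and 19.7% fell at 1 day and 31.7% rose and 23.7% fell at 3 days, so the share that rose at 1 day is near that of all genes. Tsc2, which restrains mTOR complex 1 together with Tsc1, had 88.6 and 68.8 CPM in MI at 1 day, against 186 and 158 CPM in sham, and 33 and 32.3 CPM in MI at 3 days, against 123 and 120 CPM in sham. It fell by 1.12 ± 0.18 at 1 day (log2 scale, adjusted p = 0.00154, edgeR) and by 1.90 ± 0.19 at 3 days (adjusted p = 2.42e-05). Tsc1 fell by 1.31 ± 0.16 at 3 days (adjusted p = 0.000109). Sesn2, a stress-induced leucine sensor that also restrains mTOR complex 1, rose by 2.85 ± 0.42 at 1 day (adjusted p = 0.00102).

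In a list of 7 genes of the MYC family and the response to ribosomal stress, 4 rose and none fell at 1 day (median log2 fold change 0.93) and 2 rose and none fell at 3 days (median -0.07). The count at 3 days is about the share of all genes that rose, 31.7%, and at 1 day that share was 19.3%. Myc, whose product drives transcription of ribosome biogenesis and ribosomal protein genes in many cell types, had 61.3 and 24.7 CPM in MI at 1 day, against 2.2 and 3.73 CPM in sham (3.88 ± 0.52, adjusted p = 0.000678, edgeR). At 3 days it had 25.5 and 13.9 CPM in MI, against 4.01 and 2.87 CPM in sham (2.51 ± 0.50, adjusted p = 0.00208). Both MI groups lay above sham. The difference between the days, -1.37 ± 0.75, did not pass (adjusted p = 0.214, edgeR), though it did without MI library B of 1 day (adjusted p = 0.0433). Trp53 rose by 0.93 ± 0.20 at 1 day (adjusted p = 0.0058), a call lost when sham library A of 1 day (adjusted p = 0.0656) or B (adjusted p = 0.0757) was left out, and by 1.31 ± 0.19 at 3 days (adjusted p = 0.000249). Cdkn1a, a p53 target that halts the cell cycle, rose by 1.01 ± 0.32 at 1 day (adjusted p = 0.0321), not called without any 1 library other than MI library B of 1 day (adjusted p between 0.0545 and 0.289).

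Markers of the cells present also changed, in directions that differed between cell types and days. Of all genes, 19.3% rose and 19.7% fell at 1 day, and 31.7% rose and 23.7% fell at 3 days. Cardiomyocyte markers fell at 1 day in 9 of 10 cases (median log2 fold change -1.16), with summed levels of 101107 and 111768 CPM in MI, against 188812 and 163583 CPM in sham. Neutrophil markers rose in 8 of 8 cases at 1 day and 7 of 8 at 3 days. Monocyte and macrophage markers rose in 6 of 9 cases at 1 day and 9 of 9 at 3 days, with sums of 11789 and 9773 CPM in MI at 3 days, against 1081 and 588 CPM in sham. Fibroblast markers rose in 1 of 7 cases and fell in 2 at 1 day, and rose in 5 at 3 days, with sums of 13215 and 12971 CPM in MI, against 4126 and 1987 CPM in sham. Cell cycle genes rose in 0 of 6 cases at 1 day and 6 of 6 at 3 days, with sums of 1552 and 1664 CPM in MI at 3 days, against 134 and 93.1 CPM in sham. Endothelial markers rose in 4 of 6 cases at 1 day and 3 at 3 days, lymphocyte markers in 2 of 7 at each day, and smooth muscle and pericyte markers in none of 5 at 1 day and 3 at 3 days. In the opposite direction, 1 endothelial marker fell at each day, and 1 smooth muscle and pericyte marker fell at 1 day and 2 at 3 days. Of the red blood cell markers, Hbb-bs, Hbb-bt, Hba-a1 and Hba-a2 had 0 gene counts in all libraries. The part of these cell types in the rise of ribosomal protein genes was not tested.

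In the authors' deposited table of 1 day, 8 of the 82 listed ribosomal protein genes had a higher level in MI and 2 a lower one at an adjusted p under 0.05. An adjusted p was given for 79 of the 82. Of all 22973 genes listed there, 1641 were higher in MI and 2104 lower at that threshold. In the authors' deposited table of 3 days it was 69 and 1 of 81, once the sign, which ran sham over MI there, was turned to MI over sham. With the same turn, 4296 of all 19434 genes listed there were higher in MI and 4397 lower.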

How the data were processed

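Per the labels' protocols, a column kit gave total RNA, from which ribosomal RNA was removed before paired-end sequencing. The submitters' processing notes name Bowtie2 2.2.5, TopHat2 2.0.14, SAMtools 0.1.2, FastQC, HTSeq and DESeq2 and the build mm10, with no role; none of the sources used states the strand setting. The deposited tables hold raw counts per gene symbol and, per the file headers, total read counts per transcript with its length. The authors' deposited result tables hold log2 fold changes and adjusted p-values per gene; the sign was checked against the counts. Count columns carry a group and a number that no label ties to a replicate; these numbers match between the tables, except that both sham columns of 1 day in the gene counts have the same header, so sham A and B of 1 day may be exchanged between the tables; columns without a sample: 0.

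Both days were joined by symbol, filtered with filterByExpr, which kept 15508 of 24062 genes, TMM-scaled and fitted together in edgeR 4.0.16 (R 4.3.3, robust quasi-likelihood, 2-sided, Benjamini-Hochberg over all genes). Transcript reads were summed per gene, fitted alike, and divided by length where genes are compared. DESeq2 1.42.0 and limma 3.58.1 were alternatives. The edgeR fit of the gene counts was tested on simulated data for the 1-day comparison alone. Members and lists were chosen with earlier results of these data known. Genes were named by rule: the paralog pairs, P stalk, Rpl5, Rpl11, Rps6, Rpl13a, the 5 largest called changes each way per MI comparison and their difference, the 3 highest and 3 lowest members by CPM, and the 2 largest changes per list; Rps2, Rps3, Rps12, Rps13, Rps23, Rps26, Rps28, Rpl8, Rpl27 and others outside it were named for their role or after their values were seen. A listed ribosomal gene outside the symbol rule is not reported here.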

Additional observations from a re-analysis of the deposited data

Results flagged for a closer look

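The effect of MI differed between the days, by the test of the difference in the gene counts, in the direction of a higher effect at 3 days for 45 ribosomal protein genes and of a lower one for 1. The largest differences on the log2 scale were -4.39 for Rpl3l, 2.34 for Rps21, 2.31 for Rpl22l1, 2.25 for Rps27l, 2.10 for Rps4x and 2.09 for Rpl39. Rpl3l fell at both days. Rps21 fell at 1 day, a call that was lost when some single libraries were left out, and rose at 3 days. No test for a single outlying library was run within groups of 2; MI library B of 1 day stood apart in receptor genes and mitochondrial reads, as the values given with the library totals show.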

How the results depend on the processing

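At 3 days the number of members that rose (70) was between 68 and 73 under the other scalings, tools, filter and tables. The 1 member that fell at 3 days, in the difference and within MI became 0 where the paralogs were left out of the set, since it is Rpl3l. At 1 day the 16 that rose became 7 in the transcript-table reads, 9 in the 4 libraries of that day and 24 with library sizes alone; leaving out a library gave between 6 and 18 that rose and between 1 and 12 that fell, and library sizes alone gave 1 that fell. In the transcript-table reads, leaving out a library (added after seeing the data) gave between 0 and 8 that rose and 1 and 14 that fell at 1 day. Leaving out a library gave between 19 and 46 for the difference and between 37 and 63 for 3 days against 1 day in MI. The summed level, as log2 of MI over sham, was 0.24 at 1 day and 1.74 at 3 days with library sizes alone, against -0.04 and 1.48; that scaling moved the median of all genes from 0.12 to 0.39 at 1 day and from 0.16 to 0.43 at 3 days, and the split of all calls from 2993 higher and 3058 lower to 4262 and 2044 at 1 day. Of 80 members in both tables, the sign of the log2 change differed between gene counts and transcript-table reads for 21 at 1 day, 1 at 3 days and 10 in the difference, and 3, 0 and 6 of these were called in either table. These were, with the value in transcript-table reads, Rpl24 (-0.15), Rpl28 (-0.35) and Rps13 (-0.24) at 1 day, and Rpl24 (1.05), Rpl17 (1.23), Rpl10a (1.42), Rpl30 (1.40), Rpl23a (1.77) and Rpl27 (1.5) in the difference. Outside the members, Snhg1 turned at 1 day (-1.34). The cause was not tested. Unique reads of the transcript tables were not run. No paired analysis was possible because no label ties the numbers in the count columns to replicate numbers. With 2 mice a group, p-values rest on a spread shared over the 4 groups, and counts near 0 (Rpl30, Rpl39l) limit single genes.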
